A study of Oryza sativa with 18 samples.

Results

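Of the 64687 rice genes listed, 71 were close to silent in crown root tips without jasmonate (JA) and counted in every JA library of WT plants and of the line oscoi1ab. They were chosen from the deposited counts by fixed limits in CPM, the count per 1000000 counts of the library: a mean under 0.1 CPM in the mock libraries of each of the 3 lines, and at least 1 CPM in each of the 3 WT JA and 3 oscoi1ab JA libraries. The level of these genes in the oscoi2 JA libraries played no part in the choice, and it is the measurement described here. The mock, WT JA and oscoi1ab JA levels that the rule used are a description, and each test below has at least 1 such group on a side that the rule fixed.

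The plants were of the cultivar Kitaake. WT plants, homozygous oscoi1ab plants (small deletions in both OsCOI1a and OsCOI1b) and homozygous oscoi2 plants (deletions in OsCOI2) were treated at an age of 6 days for 6 h with 5 µM JA in liquid medium, or with DMSO as the mock treatment. Around 1 cm of the crown root tips of 20 to 24 plants was pooled for each sample, and 3 biological samples were sequenced per line and treatment, 18 libraries in all. Each edited genotype is represented by 1 line, and JA was read at 1 dose and 1 time.

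JA acts through its conjugate with isoleucine, which joins a COI F-box protein to a JAZ repressor. The JAZ protein is then degraded, and transcription factors such as MYC2 are released to activate their targets. Rice has the receptor genes OsCOI1a, OsCOI1b and OsCOI2. The known outputs of the pathway in rice include proteinase inhibitors, lignin-forming enzymes and diterpenoid phytoalexins, antimicrobial compounds made from geranylgeranyl diphosphate by a copalyl diphosphate synthase (CPS), then a kaurene synthase-like enzyme (KSL), then cytochromes P450.

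Library totals ran from 99657931 to 113672521 estimated counts. Low counts were spaced by about 3.67, which is taken here, as an assumption, to be what 1 read pair adds, and 3 read pairs, used as the floor of detection, came to a median of 0.103 CPM. The mock limit of 0.1 CPM therefore lies at this floor. It applies to group means, so silence here means a group mean under the limit and not a lack of counts. Single mock libraries went above the floor, such as LOC_Os04g33150 at 0.293 CPM in WT mock library 1. OsAOS3 had counts in 8 of the 9 mock libraries. OsCOI1a (LOC_Os01g63420) had 7.41 to 28 CPM in the oscoi1ab libraries and 70.0 to 121 in the WT libraries, and OsCOI2 (LOC_Os03g15880) had 21.5 to 28.2 CPM in the oscoi2 and 38.4 to 58.3 in the WT libraries. Neither range overlapped that of WT plants, whereas OsCOI1b (LOC_Os05g37690) at 70.2 to 134 CPM in oscoi1ab overlapped the 79.0 to 159 CPM of WT plants. The silicon transporter gene OsLsi1, a root marker, stood at 677 to 2160 CPM across the libraries, and the 6 root markers were all counted. The leaf gene LOC_Os12g19381 (RbcS) ranged from 1.72 to 135 CPM and moved with the groups. Its mean was 91.3 CPM without and 3.79 CPM with JA in WT plants, 105 and 4.74 CPM in oscoi1ab plants, and 20.3 and 16.7 CPM in oscoi2 plants. Of the other 4 markers of leaf, endosperm and anther, GluA-1 had 2.59 to 10.9, GluA-2 1.23 to 3.93, a further RbcS gene 0 to 0.619 and OsC6 0 to 0.304 CPM. Their part in the results was not tested.

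Silence under mock was common among the listed genes, and a start from it under JA was rare. In the 3 mock groups, 32278 genes had means under 0.1 CPM, of which 9060 had a count in at least 1 library. Of these 32278 genes, 77 reached 1 CPM in every WT JA library, 74 in every oscoi1ab JA library and 9 in every oscoi2 JA library. The members make up 0.11% of all genes listed. The WT and oscoi1ab sets share the 71 by the rule, and 6 and 3 genes belong to the WT and the oscoi1ab set alone. All 9 genes of the oscoi2 set are among the 71, so no gene went from silence to 1 CPM in the oscoi2 JA libraries without doing so in the other lines.

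The mock libraries held few counts of these genes. At 0 in all 9 mock libraries were 22 genes, 18 had counts in 1 mock library, 21 in 2 or 3 and 10 in 4 or more. Summed over the 71 genes, the WT mock libraries held 0.917, 1.83 and 1.28 CPM. The sums were 0.555, 1.28 and 1.46 CPM in the mock libraries of oscoi1ab plants, with 0.775, 0.749 and 1.87 CPM in those of oscoi2 plants. The lines overlapped under mock.

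After JA the summed level was 603, 865 and 894 CPM in the WT libraries 1, 2 and 3 and 844, 603 and 639 CPM in the oscoi1ab libraries. In the oscoi2 libraries it was 193, 128 and 199 CPM. All 3 oscoi2 JA libraries lay under the 6 others and far above every mock library. Of the oscoi2 JA sums, LOC_Os12g12720 held 68.6, 45.4 and 80.6 CPM and Os12g0228650 33.2, 20.2 and 37.7 CPM. LOC_Os05g01920 held 26.0, 16.8 and 43.9 CPM. These sums thus mostly reflect these few genes and not the 71 as a whole. WT JA library 1 was the lowest WT JA library for 40 of the 71 genes, and oscoi1ab JA library 1 was the highest of its group for 42. The same shares over all genes were not computed, so nothing particular to the 71 is read from them. In these pooled root tips, fewer cells expressing a gene and less RNA per cell cannot be told apart.

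**Figure D1:**
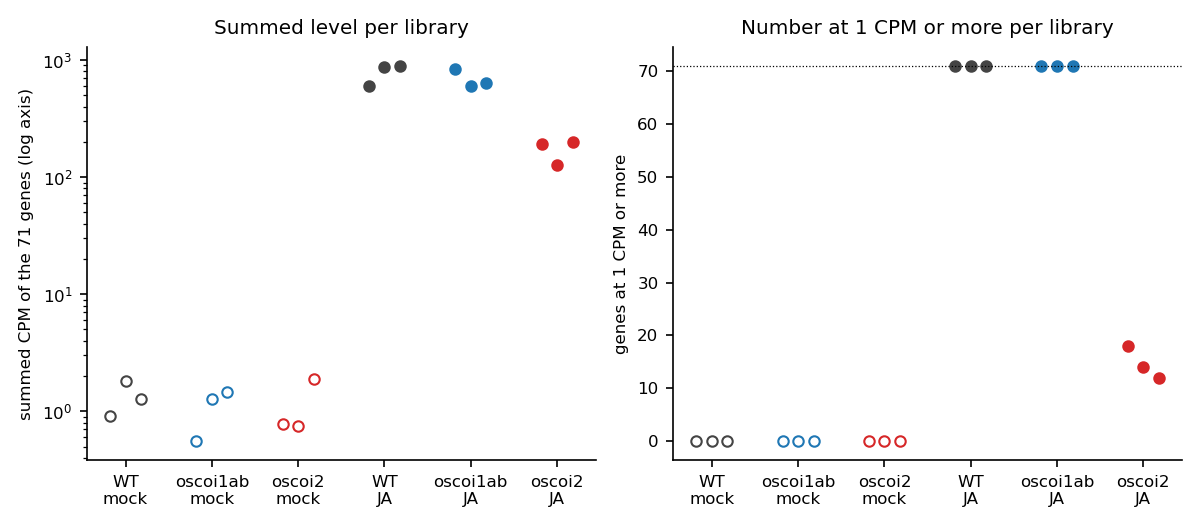
Summed CPM of the 71 genes (left, log axis) and the number of them at 1 CPM or more (right) in each of the 18 libraries, with 3 points per line and treatment, open for mock and filled for JA. The oscoi2 JA libraries sum to 128 to 199 CPM and hold 12 to 18 genes at 1 CPM or more, where the rule fixes 71 in the WT JA and oscoi1ab JA libraries and the dotted line marks 71. LOC_Os12g12720 alone holds 45.4 to 80.6 CPM of the oscoi2 JA sums.

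Most of the genes did not come close to the other lines in oscoi2 plants. At least 1 CPM was reached by 18, 14 and 12 of the 71 genes in the oscoi2 JA libraries 1, 2 and 3. All 3 libraries reached it for 9 genes, 2 for 4 genes, 1 for 9 genes and none for 49. The mean over the oscoi2 JA libraries was under 0.1 CPM for 16 genes (22.5%), from 0.1 to 1 CPM for 41 and at least 1 CPM for 14. A complete lack of counts was rare: 6 genes were at 0 in all 3 oscoi2 JA libraries, and 43 had counts in all 3.

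As a percent of the mean over the 6 WT JA and oscoi1ab JA libraries, the level in oscoi2 JA had a median of 7.75% over the 71 genes, with quartiles of 2.48% and 20.4% and a range from 0 to 120%. Taken for each oscoi2 JA library, the median was 7.74, 7.18 and 4.96%, an SD of 1.47 (n = 3). Without oscoi2 JA library 1 the median of the means was 5.42%. The share was under 5% for 31 genes, under 10% for 44 and at least 50% for 6. For 65 genes all 3 oscoi2 JA libraries lay under the lowest of the 6 others, which is the case for 7.98% of all genes tested and for 10.6% of the 20867 genes that also had at least 1 CPM in each of the 6.

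**Figure D2:**
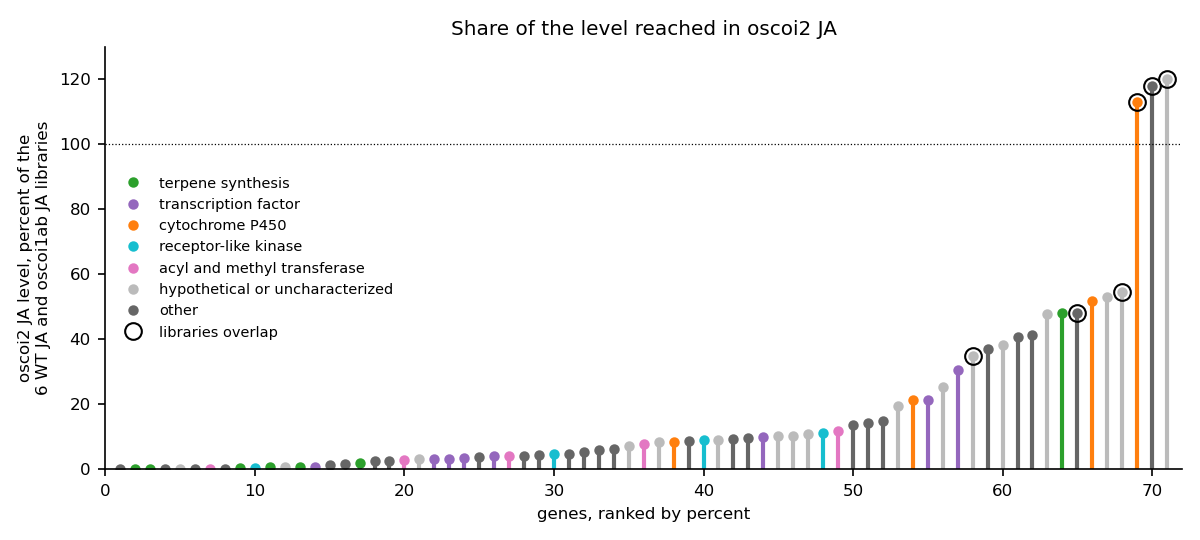
Mean CPM in oscoi2 JA as a percent of the mean over the 6 WT JA and oscoi1ab JA libraries for each of the 71 genes, ranked from left to right and coloured by annotated role, with open circles for the 6 genes whose oscoi2 JA libraries overlap the 6 others. The median is 7.75%, and 3 genes stand above the dotted line at 100%.

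The level in the other lines was a poor guide to the level in oscoi2 plants. Over the 71 genes the level in the 6 libraries and the level in oscoi2 JA had a Spearman rho of 0.12, and the level in the 6 libraries and the percent one of -0.35. The 22 genes at 10 CPM or more had a median of 3.42%, and the 21 genes under 3 CPM one of 21.4%. Exceptions among the 10 most strongly counted genes were LOC_Os12g12720, Os12g0228650 and LOC_Os05g01920, at 118, 120 and 48.2%. These are descriptions across genes, which are not independent replicates, and the percent shares its denominator with the level. CPM is not corrected for gene length, so an order of levels between genes also reflects their length.

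**Figure D3:**
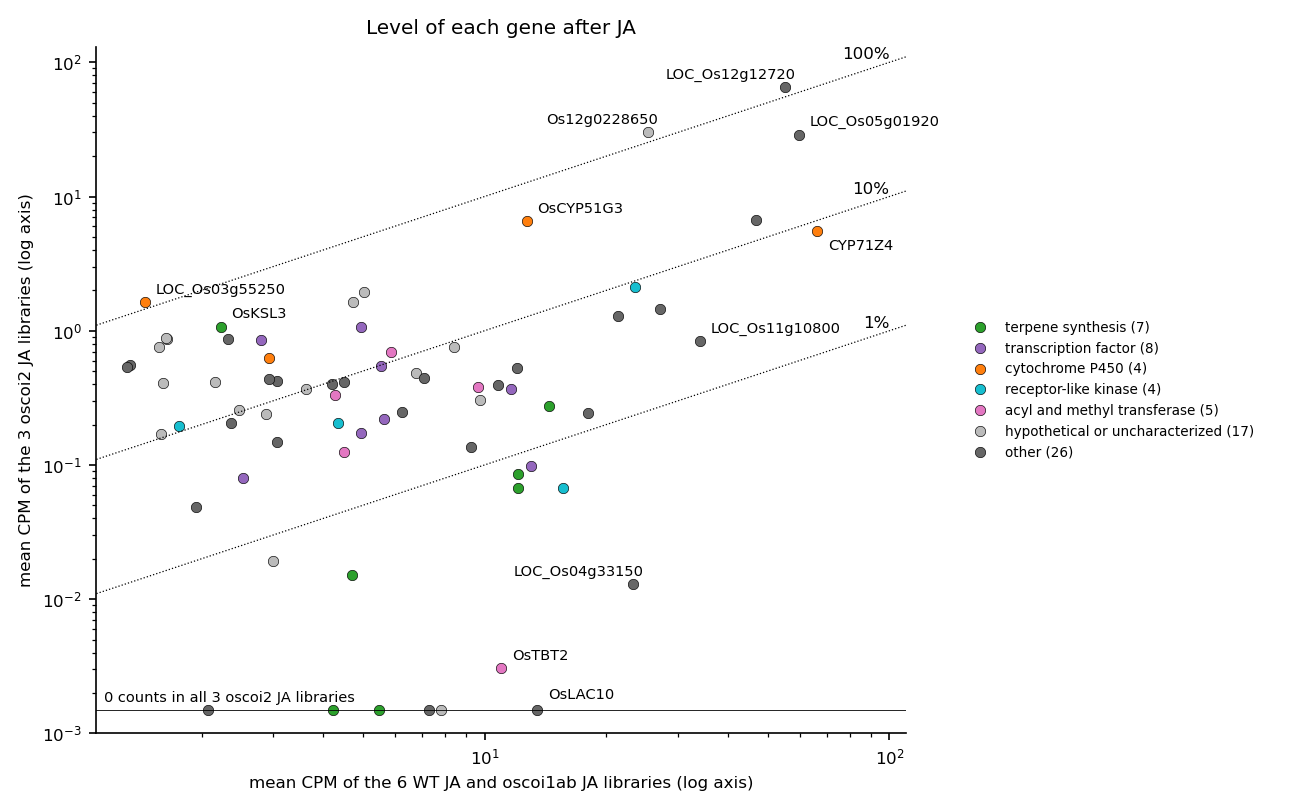
Mean CPM of the 3 oscoi2 JA libraries against mean CPM of the 6 WT JA and oscoi1ab JA libraries for each of the 71 genes, both on log axes, coloured by annotated role. Dotted lines mark 100, 10 and 1%, the lower solid line holds the 6 genes at 0 counts in oscoi2 JA, and the points scatter widely at every level (rho 0.12).

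The levels were compared by edgeR's quasi-likelihood F test, fitted on the 30907 genes with a count sum of at least 180, and a gene was called at a false discovery rate (FDR) under 0.01 and a change of at least 2-fold. All 71 genes pass this filter through the libraries that the rule requires to be high. Each comparison of oscoi2 JA has 1 side that the rule fixed: low mock levels, or high WT JA and oscoi1ab JA levels. The direction of a call was thus largely given, and the count says how often the difference passed the test.

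Against oscoi2 mock, 34 of the 71 genes were higher in oscoi2 JA, where 2.99% of all genes tested and 3.40% of the 235 other genes tested with means under 0.1 CPM in the 3 mock groups were called higher. In oscoi2 JA, 39 genes were lower than in WT JA and 36 were lower than in oscoi1ab JA. Over all genes tested 2.22% and 2.26% were called lower in these comparisons, and over the genes at 1 CPM or more in each of the 6 libraries 3.19% and 3.20%. None of the 71 genes was called higher than in either line, where 1.71% and 2.22% of all genes and 1.48% and 2.21% of the genes at 1 CPM or more in each of the 6 libraries were. The median log2FC of the 71 genes was -3.82 against WT JA and -3.72 against oscoi1ab JA, also with the 6 genes without counts set at their bound, and that of all genes tested was 0.02 and 0.01. Lower than both were 34 genes, of which 16 were also higher than in oscoi2 mock and 18 were not called against it. Another 15 genes were higher than in oscoi2 mock and called lower in neither comparison, and 15 had no call in any of the 3. These comparisons share the oscoi2 JA libraries, and the rule fixed the other side of each. The shares of all genes tested with such combined calls were not computed, so the combined counts are a description only.

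Single libraries weigh on such calls. In all of the 18 fits that each leave out 1 library, the call was the same for 24 of the 34, 25 of the 39 and 24 of the 36 genes. The number called ran from 27 to 38, from 26 to 41 and from 26 to 41. Using limma-voom gave 14 calls against oscoi2 mock in place of 34, with all 71 genes tested. Fitting only the oscoi2 libraries gave 14 calls among the 26 of the 71 genes that it tested.

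LOC_Os12g12720, annotated as a jasmonate-induced protein, had the highest mean level of the 71 genes in oscoi2 JA. It had 61.3, 75.8 and 46.4 CPM in WT JA, 47.0, 55.8 and 44.5 in oscoi1ab JA and 68.6, 45.4 and 80.6 in oscoi2 JA. The oscoi2 libraries overlapped both other lines. Its level in oscoi2 JA was 118% of that in the 6 libraries, with log2FC -0.06 ± 0.33 (standard error, FDR = 0.941) against WT JA and 0.27 ± 0.33 (FDR = 0.648) against oscoi1ab JA, and in the oscoi2 mock libraries it was at 0, 0 and 0.0528 CPM. The sign of the small difference from WT JA turned to 0.09 when libraries were scaled by their totals alone. Os12g0228650, a hypothetical protein gene next to it, stood at 33.2, 20.2 and 37.7 CPM in oscoi2 JA, 120%. Both genes had identical counts in all 9 mock libraries, of which 3 held counts, and the ratio of their levels was 0.403 to 0.608 over the 9 JA libraries. Whether they share reads was not tested, and they may count as 1.

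LOC_Os05g01920 is annotated as an inhibitor I family gene. Its level was 70.2, 74 and 67.7 CPM in WT JA, 42.7, 60.6 and 44.3 in oscoi1ab JA and 26.0, 16.8 and 43.9 in oscoi2 JA. The highest oscoi2 library overlapped the oscoi1ab libraries but not the WT libraries. At 48.2% of the 6 libraries it was higher than in oscoi2 mock (log2FC 9.07 ± 0.73, FDR = 5.84e-07), and the difference from WT JA was not called (log2FC -1.44 ± 0.46, FDR = 0.044).

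The 4 cytochrome P450 genes, whose family oxidises sterols, terpenoids and many other substrates, were all higher in oscoi2 JA than in oscoi2 mock. That call was made for 47.9% of the 71 genes and for 2.99% of all genes tested. The 4 genes stood at 8.33 to 113% of the 6 libraries. CYP71Z4 (LOC_Os10g30390) had 50, 60.8 and 89.7 CPM in WT JA, 92.4, 47.4 and 57.9 in oscoi1ab JA and 9.7, 4.76 and 2.12 in oscoi2 JA. Every oscoi2 library was under the 6 others, yet with none of the oscoi2 mock libraries holding a count the level in oscoi2 JA was at least 54.1-fold higher (FDR = 6.06e-05). It was the P450 gene called lower than in WT JA (log2FC -3.73 ± 0.57, FDR = 0.00102) and oscoi1ab JA (log2FC -3.71 ± 0.57, FDR = 0.000952).

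OsCYP51G3 (LOC_Os05g12040), of the CYP51 family that includes sterol demethylases, had 6.76, 6.51 and 6.42 CPM in oscoi2 JA, 10.4, 15.4 and 10.3 in WT JA and 9.45, 17.3 and 13.3 in oscoi1ab JA. The oscoi2 libraries differed little among themselves and lay under the 6 others. Not counted in any oscoi2 mock library, it was at least 64.2-fold higher after JA (FDR = 3.02e-06), and log2FC -1.02 ± 0.42 against WT JA was not called (FDR = 0.124). LOC_Os03g55250, annotated as another cytochrome P450, was low in all lines, at 1.32, 1.59 and 1.98 CPM in oscoi2 JA, 1.76, 1.47 and 1.14 in WT JA and 1.35, 1.72 and 1.23 in oscoi1ab JA. The 3 groups overlapped, with log2FC 0.02 ± 0.90 (FDR = 0.996) against WT JA, whose error leaves room for a change in either direction. It was higher than in oscoi2 mock (log2FC 6.76 ± 1.24, FDR = 0.00191), a call lost without oscoi2 mock library 1 or 3. OsAOS3 (LOC_Os02g12680), a CYP74 enzyme acting on fatty acid hydroperoxides, reached 0.759, 0.855 and 0.271 CPM in oscoi2 JA, 21.4% of the 6 libraries. It was higher than in oscoi2 mock (log2FC 4.31 ± 0.79, FDR = 0.00135), a call lost without oscoi2 mock library 1 or 3.

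**Figure D4:**
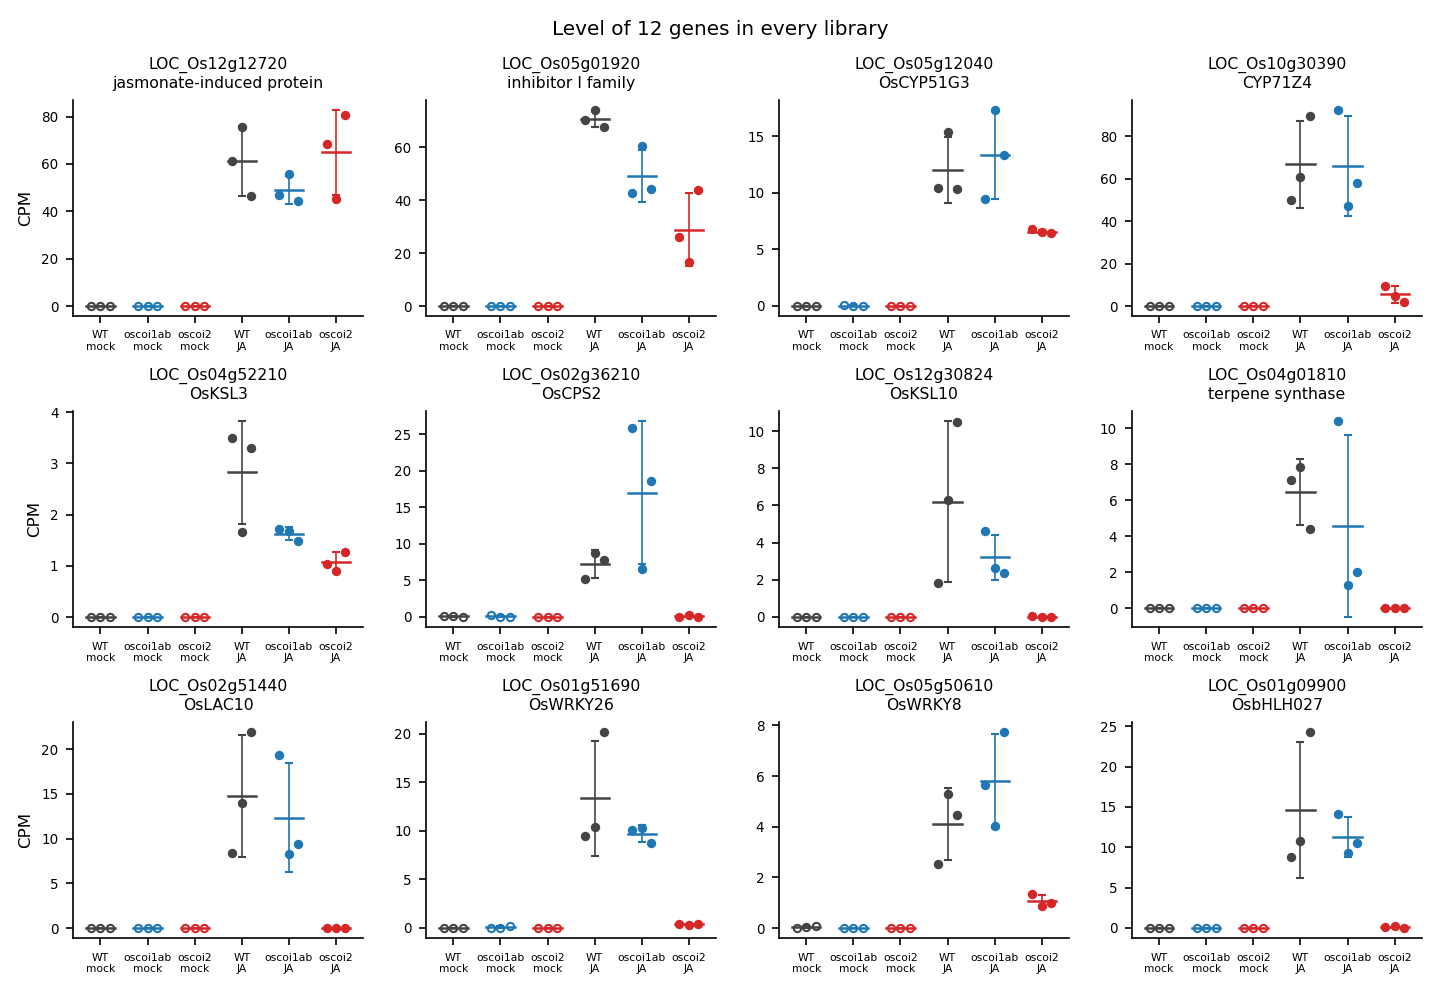
CPM of 12 of the 71 genes in every library, on linear axes, with 3 points per line and treatment (open for mock, filled for JA), the mean as a horizontal bar and the SD as error bars. In oscoi2 JA, LOC_Os12g12720 lies at 45.4 to 80.6 CPM among the other lines, CYP71Z4 at 2.12 to 9.7 CPM under them, and OsLAC10 and LOC_Os04g01810 at 0.

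Genes of terpene synthesis were among the least counted in oscoi2 JA. This role was annotated for 7 of the 71 genes, with a median of 0.557% and a range from 0 to 48.1%. In oscoi2 JA, 6 of the 7 were lower than in WT JA and 6 lower than in oscoi1ab JA, and 1 was higher than in oscoi2 mock. The exception in each case was OsKSL3. Of the 71 genes, 54.9%, 50.7% and 47.9% had these calls, and of all genes tested 2.22%, 2.26% and 2.99%.

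OsCPS2 (LOC_Os02g36210) makes the ent-copalyl diphosphate from which phytocassanes and several oryzalexins derive. It had 5.16, 8.79 and 7.81 CPM in WT JA, 25.9, 6.5 and 18.6 in oscoi1ab JA and 0, 0.202 and 0 in oscoi2 JA. The oscoi2 libraries were at or near the floor, and the other lines overlapped. The fitted log2FC was -6.86 ± 1.18 (FDR = 0.00145) against WT JA and -8.09 ± 1.23 (FDR = 0.000532) against oscoi1ab JA, and both rest on counts in 1 oscoi2 JA library. The study's RT-qPCR primer list gives a short pair for OsCPS2, whose match to this gene was not checked here. The same list gives an identical pair for OsKSL10 and OsDPF. The OsCPS2 pair is shown 5′ to 3′ and as listed, with the forward primer of 19 bases and the reverse primer of 20 bases.
OsCPS2 forward: cgtgaagcgtggaagcagt
OsCPS2 reverse: gcgtagtctgcactgttctt

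OsKSL10 (LOC_Os12g30824), the diterpene synthase that uses this product on the way to oryzalexins, had 1.82, 6.29 and 10.5 CPM in WT JA, 4.61, 2.63 and 2.38 in oscoi1ab JA and 0.0457, 0 and 0 in oscoi2 JA. Its neighbours LOC_Os12g30800, annotated as an ent-kaurene synthase B, and LOC_Os12g30790, annotated as a retrotransposon protein, are both among the 71. LOC_Os12g30800 had 11.2 to 21.6 CPM in WT JA, 8.07 to 24.3 in oscoi1ab JA and 0.576, 0.248 and 0 in oscoi2 JA. In all 3 neighbours the oscoi2 libraries lay under the 6 others, and each was lower than in both lines (FDR = 0.000586, 0.00256 and 0.00116 for OsKSL10, LOC_Os12g30800 and LOC_Os12g30790 against WT JA). The call of LOC_Os12g30800 against WT JA was lost without WT JA library 3 and without oscoi2 JA library 2.

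The terpene synthase genes LOC_Os04g01810 and LOC_Os04g27670 were at 0 in all oscoi2 libraries, mock and JA. LOC_Os04g01810 had 7.1, 7.86 and 4.38 CPM in WT JA and 10.4, 1.31 and 1.98 in oscoi1ab JA, and LOC_Os04g27670 had 1.98, 4.58 and 9.04 and 1.18, 2.5 and 6.08 CPM. The spread within a group was wide for LOC_Os04g27670 in both lines and for LOC_Os04g01810 in oscoi1ab JA, and smaller for LOC_Os04g01810 in WT JA. In oscoi2 JA they were at least 62.7-fold and 50.6-fold lower than in WT JA (FDR = 0.00114 and 0.000834). OsTPS5 (LOC_Os02g36020), which carries a terpene synthase-like domain, had 0.119, 0.138 and 0 CPM in oscoi2 JA and at least 6.91 in each of the 6 libraries.

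OsKSL3 (LOC_Os04g52210), an ent-kaurene synthase-like gene, differed from these. It had 1.04, 0.892 and 1.28 CPM in oscoi2 JA, 3.5, 1.67 and 3.3 in WT JA and 1.72, 1.69 and 1.48 in oscoi1ab JA, and was at 0 in all 9 mock libraries. The oscoi2 JA libraries lay under the 6 others by a small margin. It was at least 10.5-fold higher than in oscoi2 mock (FDR = 1.51e-05), and log2FC -1.54 ± 0.41 (FDR = 0.0284) against WT JA and -0.74 ± 0.40 (FDR = 0.247) against oscoi1ab JA were not called.

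The study lists 28 genes of the precursor (MEP) pathway and of diterpenoid phytoalexin synthesis, a list it chose in part on these samples, so that its direction is not independent evidence. OsCPS2 and OsKSL10 are its members of the 71. Of its 27 genes tested, 14 were lower in oscoi2 JA than in WT JA and 15 lower than in oscoi1ab JA, with a median log2FC of -4.03 against WT JA, and 2 were higher than in oscoi2 mock. Most of the list was counted under mock, such as OsDXS3 at 5.05 CPM in WT mock. Another 4 genes of the list were silent under mock without being among the 71. OsTPS28 (LOC_Os07g11790) averaged 1.16 CPM in WT JA and 1.37 in oscoi1ab JA and OsCYP71Z21 (LOC_Os07g11870) 0.737 and 1.27, and both were at 0 in oscoi2 JA. OsCYP71Z30 (LOC_Os07g11890) averaged 0.464 and 0.539 CPM and OsBHLH026 (LOC_Os01g09930) at most 0.0306.

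The study also lists transcription factor (TF), phenylpropanoid, JA metabolism and JAZ genes, likewise chosen in part on these samples. Of the 351 TF genes, 16 were silent under mock and 8 are among the 71: OsbHLH027, OsWRKY26, OsWRKY40, OsWRKY27, OsWRKY8, an LBD gene, a MYB-related gene and OsERF105. WRKY proteins bind the W-box of defence genes, and LBD proteins act in organ and lateral root formation. The 8 genes reached 2.53 to 13.0 CPM in the 6 libraries and 0.756 to 30.5% of that in oscoi2 JA, with a median of 3.70%. In oscoi2 JA, 5 were lower than in WT JA, 6 lower than in oscoi1ab JA and 5 higher than in oscoi2 mock. Of the 71 genes, 54.9%, 50.7% and 47.9% had these calls, and of all genes tested 2.22%, 2.26% and 2.99%. Over the 351 genes, 49 were lower and 11 higher than in WT JA, and 65 were higher and 14 lower than in oscoi2 mock.

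OsbHLH027 (LOC_Os01g09900), of the helix-loop-helix family, had 8.77, 10.8 and 24.3 CPM in WT JA, 14.1, 9.31 and 10.5 in oscoi1ab JA and 0.0366, 0.258 and 0 in oscoi2 JA. It was at 0 in all 9 mock libraries, and its oscoi2 JA libraries lay far under the 6 others (log2FC -7.35 ± 0.91, FDR = 0.000526 against WT JA). Its mean in oscoi2 JA, 0.098 CPM, was near the floor of detection, so the size of that log2FC is uncertain. Its level in oscoi2 JA was not called against oscoi2 mock (FDR = 0.0576). OsWRKY26 (LOC_Os01g51690) had 9.52, 10.4 and 20.2 CPM in WT JA, 10.1, 10.3 and 8.77 in oscoi1ab JA and 0.375, 0.304 and 0.426 in oscoi2 JA. The 3 oscoi2 libraries were close to each other, under the 6 others (log2FC -5.32 ± 0.73, FDR = 0.000518 against WT JA) and at least 3.6-fold above oscoi2 mock (FDR = 0.00265), a call that was lost without oscoi2 mock library 1 or 3.

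OsWRKY8 (LOC_Os05g50610) was the WRKY gene with the highest share, 21.4%. It had 1.33, 0.855 and 0.987 CPM in oscoi2 JA, 2.52, 5.29 and 4.47 in WT JA and 5.65, 4.05 and 7.74 in oscoi1ab JA. The oscoi2 libraries lay under both groups, at least 10.4-fold above oscoi2 mock (FDR = 5.61e-05), and the gene was called lower than in oscoi1ab JA (log2FC -2.58 ± 0.54, FDR = 0.00609) but not than in WT JA (log2FC -2.09 ± 0.53, FDR = 0.0187). Its call against oscoi1ab JA was lost without oscoi1ab JA library 1 or 3 or any 1 of the oscoi2 JA libraries. OsWRKY40 (LOC_Os11g02530) was at 0.116 to 0.283 CPM and OsWRKY27 (LOC_Os01g40430) at 0 to 0.339 CPM in oscoi2 JA, both under every library of the other lines, and OsWRKY27 lost its call against WT JA without any 1 of the 9 JA libraries.

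The MYB-related gene LOC_Os05g37050 had 1.11, 0.598 and 0.861 CPM in oscoi2 JA, 2.69, 1.91 and 2.56 in WT JA and 2.46, 3.87 and 3.34 in oscoi1ab JA. With 30.5% it had the highest share of the 8 and was called lower than neither line (log2FC -1.62 ± 0.84, FDR = 0.224 against WT JA). The LBD gene LOC_Os05g03160 had counts in each oscoi2 mock library and 0.667, 0.258 and 0.716 CPM in oscoi2 JA, with log2FC 3.76 ± 0.90 (FDR = 0.00852) over oscoi2 mock, a call kept in 6 of the 18 fits and lost without any 1 of the oscoi2 mock, WT JA or oscoi1ab JA libraries, without WT mock library 3 and without oscoi2 JA library 1 or 3. OsERF105 (LOC_Os05g36100), of the ethylene response factor family, stayed at 0.064, 0.175 and 0 CPM in oscoi2 JA and had 1.53 to 3.94 CPM in the other lines. It was not called lower than in WT JA (log2FC -4.78 ± 1.24, FDR = 0.0149). Its call against oscoi1ab JA (log2FC -5.38 ± 1.27, FDR = 0.00772) held in 8 of the 18 fits.

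**Figure D5:**
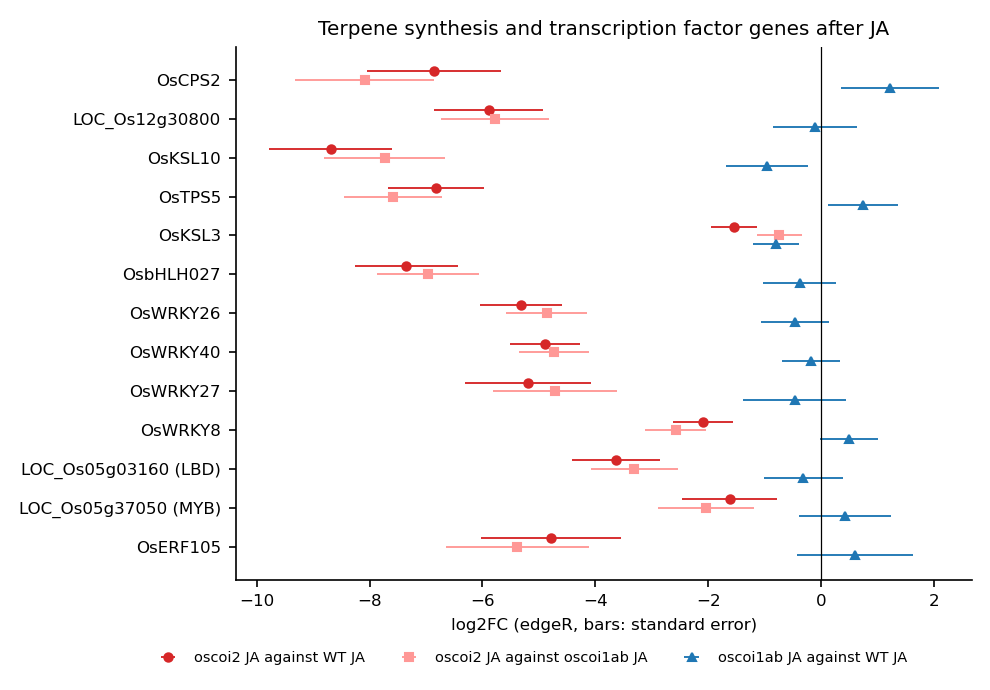
log2FC with its standard error (edgeR, n = 3 per group) for 5 terpene synthesis and 8 transcription factor genes in oscoi2 JA against WT JA (circles), oscoi2 JA against oscoi1ab JA (squares) and oscoi1ab JA against WT JA (triangles). The 3 comparisons share libraries. Against WT JA, oscoi2 JA stands at -8.69 for OsKSL10 and at -1.54 for OsKSL3, and the oscoi1ab values lie from -0.96 to 1.22. The fitted value of OsKSL10 rests on 0.0457 CPM in 1 oscoi2 JA library, under the floor of detection, so its size is uncertain.

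OsLAC10 (LOC_Os02g51440) encodes a laccase, an enzyme that oxidises lignin precursors in the cell wall, and is the 1 gene of the 71 in the study's list of 34 shikimate and phenylpropanoid genes. It had 8.38, 14 and 21.9 CPM in WT JA, 19.3, 8.23 and 9.42 in oscoi1ab JA and no count in the 3 oscoi2 JA libraries. In oscoi2 JA it was at least 144-fold lower than in WT JA (FDR = 1.68e-05). Over the 34 listed genes, 9 were lower in oscoi2 JA than in WT JA and 6 were higher than in oscoi2 mock, with a median log2FC of -0.83 against WT JA. Besides OsLAC10 and the terpene synthase genes LOC_Os04g01810 and LOC_Os04g27670, those at 0 in oscoi2 JA were LOC_Os12g30790, Os01g0124550 and LOC_Os03g61510, a pectinesterase inhibitor domain gene at 1.44 to 2.98 CPM in the 6 libraries. Against WT JA, Os01g0124550 was at least 94.2-fold, LOC_Os12g30790 at least 74.4-fold and LOC_Os03g61510 at least 21.7-fold lower.

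The dirigent genes, whose products guide the coupling of phenoxy radicals in lignan and lignin formation, were represented by the neighbours LOC_Os11g10800 and LOC_Os11g10850. LOC_Os11g10800 had 36.6, 45.9 and 27.6 CPM in WT JA, 35.1, 27.2 and 31.8 in oscoi1ab JA and 0.494, 1.09 and 0.919 in oscoi2 JA. Its oscoi2 libraries reached 2.45% of the 6 others without overlap (log2FC -5.61 ± 0.60, FDR = 3.97e-05 against WT JA). LOC_Os11g10850 reached 9.49%, from 2.87 to 6.53 CPM in the 6 libraries to 0.21, 0.442 and 0.542 CPM (log2FC -3.86 ± 0.64, FDR = 0.00177 against WT JA).

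LOC_Os04g33150, named after the desiccation-induced protein PCC13-62 of the resurrection plant Craterostigma, had 18.5, 11.3 and 20.4 CPM in WT JA, 28.8, 30.4 and 30.6 in oscoi1ab JA and 0, 0 and 0.0387 in oscoi2 JA. It was the 1 gene whose oscoi1ab JA libraries all lay above the WT JA libraries, and its oscoi2 JA level was in the range of the mock libraries (log2FC -10.41 ± 1.30, FDR = 6.75e-05 against WT JA). This fitted value rests on counts in 1 oscoi2 JA library, under the floor of detection, so the size of the difference is uncertain. With a mean of 0.0976 CPM in its highest mock group, LOC_Os04g33150 was also the gene nearest the mock limit.

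LOC_Os07g03590, annotated as an SCP-like extracellular gene, had 14.2, 68.5 and 66 CPM in WT JA, 47.2, 35.5 and 49.1 in oscoi1ab JA and 11.9, 4.88 and 3.22 in oscoi2 JA. WT JA library 1 lay far under the other 2 and near the highest oscoi2 library, and no oscoi2 library overlapped. It was not called lower than in WT JA (log2FC -3.03 ± 0.75, FDR = 0.0131), but was so without WT JA library 1 or without oscoi1ab mock library 2. In oscoi2 JA it was at least 65.1-fold higher than in oscoi2 mock (FDR = 0.000215).

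LOC_Os04g29090, with FAD-binding and arabino-lactone oxidase domains, was at 0 in all 9 mock libraries and had 25.2, 37.6 and 27.7 CPM in WT JA, 19.4, 24.8 and 28.2 in oscoi1ab JA and 2.1, 1.5 and 0.784 in oscoi2 JA. The gene was both higher than in oscoi2 mock, at least 14.3-fold (FDR = 1.47e-05), and lower than in WT JA (log2FC -4.51 ± 0.35, FDR = 3.16e-05). The ribonuclease T2 gene OsRNS5 (LOC_Os09g36700) followed the same course, with 0.622, 1.57 and 1.67 CPM in oscoi2 JA, 6.03% of the 6 libraries, and a log2FC of 5.35 ± 0.77 (FDR = 0.000312) over oscoi2 mock and -4.33 ± 0.58 (FDR = 0.000217) against WT JA.

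Receptor-like kinases, which perceive signals at the cell surface, made up 4 of the 71 genes. In oscoi2 JA, 3 of them were lower than in WT JA and 2 lower than in oscoi1ab JA. These calls were made for 54.9% and 50.7% of the 71 genes, and for 2.22% and 2.26% of all genes tested. OsWAK63 (LOC_Os06g07330), called lower than in WT JA (log2FC -4.83 ± 0.98, FDR = 0.00826) and not than in oscoi1ab JA (FDR = 0.0135), lost its call without any 1 of the WT JA or oscoi1ab JA libraries and without oscoi2 JA library 1 or 3. The neighbours LOC_Os05g17810 and LOC_Os05g17800 are both annotated as SHR5-receptor-like kinases. LOC_Os05g17810 had 3.13, 2.02 and 1.18 CPM in oscoi2 JA and 13.9 to 32.4 CPM in the 6 libraries, was at least 20.6-fold higher than in oscoi2 mock (FDR = 7.28e-05) and lower than in WT JA (log2FC -3.76 ± 0.54, FDR = 0.000697). LOC_Os05g17800, at 1.34 to 2.51 CPM in the 6 libraries and 0.32, 0.267 and 0 in oscoi2 JA, was called in none of the 3 comparisons. How reads of these like genes were divided is not given in the sources used here.

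A neighbour group on chromosome 1 joins LOC_Os01g03310, LOC_Os01g03370 and Os01g0124550. LOC_Os01g03310 encodes a Bowman-Birk trypsin inhibitor, of a family that blocks digestive proteases of herbivores, and had 0.832, 0.432 and 0.0484 CPM in oscoi2 JA and 1.17 to 5.52 in the 6 libraries. It was not called lower than in WT JA (FDR = 0.0221) or oscoi1ab JA (FDR = 0.0688). The receptor-like kinase gene LOC_Os01g03370 had 9.2, 19.1 and 26.6 CPM in WT JA, 20.0, 7.66 and 11 in oscoi1ab JA and 0.201, 0 and 0 in oscoi2 JA. So 14.9% of the level of the 6 libraries was counted in oscoi2 JA for the inhibitor and 0.43% for the kinase, and Os01g0124550, a hypothetical protein gene, had none. Os01g0124550 ran at 0.448 to 0.55 of the level of LOC_Os01g03370 in the 6 libraries, and whether these neighbours share reads was not tested.

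In all, 14 of the 71 genes lay in 6 groups of neighbours no more than 5 listed genes apart. They were spread over the 12 chromosomes with at most 10 genes on one, on chromosomes 1 and 5, and 1 gene on chromosome 8. The transferase genes OsTBT1 (LOC_Os11g42290) and OsTBT2 (LOC_Os11g42370) are such a pair. OsTBT1 had 0.137, 0.414 and 0.59 CPM in oscoi2 JA and was at least 3.72-fold above oscoi2 mock (FDR = 0.000886), while OsTBT2 had 0, 0.0092 and 0. In the 6 libraries their levels were 4.55 to 14.5 and 5.82 to 21.2 CPM, and both were lower in oscoi2 JA than in WT JA (FDR = 0.000305 and 4.58e-05).

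Of the genes named after JA enzymes, OsJMT2 (LOC_Os02g48770), a SAM-dependent carboxyl methyltransferase, had 0.905, 0.865 and 0.319 CPM in oscoi2 JA, 11.8% of the 6 libraries at 3.15 to 9.82 CPM. The groups did not overlap, and the call against WT JA (log2FC -3.25 ± 0.75, FDR = 0.00946) held in 8 of 18 fits: it was lost without any 1 of the oscoi1ab JA or oscoi2 JA libraries, without WT JA library 1 or 3 and without oscoi1ab mock library 2 or 3. None of the 14 genes of JA metabolism and none of the 15 JAZ genes in the study's lists is among the 71, since at least 13 of each were counted at 1 CPM or more after JA and 0 and 1 were silent under mock. In oscoi2 JA, 9 of the 14 JA metabolism genes and 9 of 14 JAZ genes tested were higher than in oscoi2 mock, against 2.99% of all genes tested. In each list 9 were lower than in WT JA and 9 lower than in oscoi1ab JA, against 2.22% and 2.26%. The median log2FC against WT JA was -1.67 for JA metabolism and -1.74 for JAZ genes. Against WT JA, 1 JA metabolism gene and 0 JAZ genes were higher.

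Genes grouped by words in their descriptions as hypothetical or uncharacterized made up 17 of the 71. Their median share was 10.7%, with a range from 0 to 120%. The group also holds the non-protein coding transcripts Os05g0149450 and Os03g0764150, and OsUMAMIT4 (LOC_Os01g10990). LOC_Os12g16640, described as similar to a cyclopropane fatty acid synthase, is in it too. The unannotated gene LOC_Os01g70150 had 1.54, 1.72 and 2.53 CPM in oscoi2 JA, 5.56, 5.96 and 4.67 in WT JA and 4.46, 5.81 and 3.85 in oscoi1ab JA. It was higher than in oscoi2 mock (log2FC 6.07 ± 0.87, FDR = 0.000184) and, at 38.3%, not called lower than in WT JA (FDR = 0.102). LOC_Os11g29430 and LOC_Os08g05300 stood at 54.4 and 53.1% with 0.532 to 1.4 and 0.629 to 1.22 CPM in oscoi2 JA. LOC_Os08g05300 was at least 8.54-fold higher than in oscoi2 mock (FDR = 2.43e-05), and LOC_Os11g29430 missed the call (FDR = 0.0105) but was called without WT mock library 1, oscoi1ab mock library 1 or oscoi2 mock library 3.

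The oscoi1ab JA level of the 71 genes, like the WT JA level a value that the rule used, was 43.8 to 234% of the WT JA level, with a median of 87.2%, and was lower for 51 and higher for 20 genes. The highest was that of OsCPS2 (log2FC 1.22 ± 0.86, standard error) and the lowest that of OsHAK21 (LOC_Os03g37930), a potassium transporter gene (log2FC -1.22 ± 0.78). For 6 genes the oscoi1ab libraries all lay under and for 1 all above the WT libraries, where 3.86% and 5.03% of all genes tested did so. The rule required at least 1 CPM in both groups, so nothing is read from the test between them: edgeR called 0 of the 71 genes, 0 had an unadjusted p under 0.05, and DESeq2 and limma-voom called 0. In that comparison 0.142% of all genes tested were called higher and 0.0194% lower in oscoi1ab JA, and 0.0719% and 0.0144% of the genes at 1 CPM or more in each of the 6 libraries.

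The limits of the rule cut through a continuous range. Nearest inside the mock limit were LOC_Os04g33150 at 0.0976 and CYP71Z4 at 0.0917 CPM in their highest mock group, and nearest outside LOC_Os01g36560 at 0.103 and LOC_Os10g02840 at 0.109 CPM. Inside the JA limit were LOC_Os04g10590 and LOC_Os10g08250, annotated as transposon-related, with 1.0 and 1.11 CPM in their lowest library, and outside LOC_Os01g27860 at 0.986 and OsERF11 (LOC_Os02g54050) at 0.976 CPM. In oscoi2 JA the 2 transposon-related genes had 0.474 to 0.644 and 0.221 to 0.814 CPM, about 41% of the 6 libraries, and OsERF11 at most 0.0731 CPM.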

How the data were processed

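As the authors describe, paired reads of crown root tips were cleaned with CutAdapt and aligned by HiSat2 to rice references with the MSU7 and RAP-DB annotations. StringTie assembled transcripts, and an in-house script turned its output into gene counts. Per the deposited table, values are estimated counts as whole numbers without normalization, with both annotations merged. Promoter and protein sequences and coordinates were not used here, and the primers come from the study's primer list. Of the 71 genes, 51 have identifiers of both annotations, 9 of MSU7 and 11 of RAP-DB alone. Gene descriptions and lists are those of the study's supplementary lists, and roles were grouped by words in them. Members, lists and tests were chosen with earlier results of these data known.

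CPM used the library totals. Tests used edgeR 4.0.16 in R 4.3.3 (TMM scaling, 1 fit of 6 groups, quasi-likelihood F test, Benjamini-Hochberg FDR over 30907 genes), tested on simulated data. The standard error is the size of log2FC divided by the square root of F. Alternatives used DESeq2 1.42.0 and limma 3.58.1. Where a group was at 0, a fold is a bound against 11.01 counts per library (3 read pairs), which covers counting error only. Named by rule were the 10 genes highest in the 6 libraries, the 8 highest in oscoi2 JA and by percent, the 5 highest of those at 0, genes in study lists, 3 neighbour groups and the 2 nearest each limit. Other members were named after their values were seen.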

Additional observations from a re-analysis of the deposited data

How the results depend on the processing

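Over the 18 fits that each leave out 1 library, members called ran from 27 to 38 against oscoi2 mock, from 26 to 41 against WT JA and from 26 to 41 against oscoi1ab JA, with 0 between oscoi1ab JA and WT JA. The rule then gave 67 to 74 genes, of which 7 to 11 reached 1 CPM in each oscoi2 JA library and 5 to 9 were at 0, and the median share ran from 5.42 to 8.44%. Under the 19 other settings the counts ran from 14 to 50, 22 to 54, 21 to 51 and 0 to 0. Against oscoi2 mock, limma-voom called 14, a fit of the 2 groups alone 14 of the 26 genes it tested, and a mock limit of 0.05 CPM 20. A test for a change beyond 2-fold called 22 against WT JA and 21 against oscoi1ab JA. A mock limit of 0.05 CPM left 46 genes, 3 of them at 1 CPM in each oscoi2 JA library, and a limit of 0.2 CPM left 18 such genes. A JA limit of 2 CPM left 46 genes, 3 of them at 0, with a median share of 5.71%. Against WT JA, the small log2FC of 3 uncalled genes changed sign. LOC_Os12g12720 and Os12g0228650 went to 0.09 and 0.04 with library totals alone and LOC_Os03g55250 to -0.01 with DESeq2 and with its size factors. Leaving out 1 library, they ran from -0.24 to 0.15, from -0.28 to 0.12 and from -0.14 to 0.17, positive for the first pair without replicate 2 of WT JA (0.13 and 0.06) or oscoi2 JA, and negative for LOC_Os03g55250 without replicate 3 of WT JA (-0.13) or oscoi2 JA. The cause was not tested. Library totals alone moved the median log2FC of all genes to -0.16 against oscoi2 mock, 0.16 against WT JA and 0.14 against oscoi1ab JA. Whether the replicate numbers pair the libraries is not settled by the correlations of replicates (r from -0.193 to 0.465). They were all positive against oscoi2 mock (0.212, 0.465 and 0.095) and between oscoi1ab JA and WT JA (0.087, 0.322 and 0.296). Against WT JA and oscoi1ab JA, those of oscoi2 JA were of mixed sign. With a replicate block 34, 36, 37 and 0 genes were called. Promoter motifs and their alternatives were not run, because no promoter sequences were used here. Levels near 0.103 CPM, about 3 read pairs, limit what can be said of genes close to 0.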

Other observations

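The opposite course, from counted to silent, was taken by fewer genes: 14 genes had at least 1 CPM in each mock library and means under 0.1 CPM in WT JA and in oscoi1ab JA. None of the 14 was under 0.1 CPM in oscoi2 JA (0 genes). LOC_Os06g34180 averaged 25.9 CPM in WT mock and 1.99 CPM in oscoi2 JA, and LOC_Os12g32400 6.39 and 0.879 CPM. These levels were used to choose the genes or share libraries with those that were, and no test was made.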
